A study of Mus musculus with 2 samples.

Results

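Boundaries with the highest scores in an in situ Hi-C boundary list from mouse immediate neuronal precursors are described here. The members are the intervals with a deposited score of 1.5 or more on chromosomes 1 to 19 and X, which came to 439 of 7841 boundaries (5.60%). They were chosen by that score, the authors' own value per boundary, so every score below is a description with no test. The cells came from the olfactory epithelium of Ngn1-GFP reporter pups of the FVB/NTac strain and mixed sex, with no treatment listed. They were sorted by fluorescence, fixed in 1% formaldehyde and digested with DpnII, as 2 biological replicates of 2200000 and 2100000 cells in a single group. The labels do not say how the reporter is driven, and the sort they describe is one for immature olfactory sensory neurons. Hi-C measures contacts between stretches of DNA, not RNA, so the labelled cell type could not be checked against marker expression. Because both replicates had been merged before boundaries were called, no value here has a spread between replicates, and the contact depth is unknown.

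Mammalian chromosomes fold into domains within which contacts are frequent, and a boundary is a position that contacts across it tend to avoid. At many boundaries cohesin, a ring complex that extrudes DNA loops, is halted by CTCF, a zinc-finger protein whose binding site has a direction. Other boundaries lie at the starts of active genes. In the olfactory lineage, precursors leave the cell cycle and become sensory neurons, each of which uses 1 odorant receptor gene out of large clusters spread over many chromosomes.

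The sequences below show exact matches to the CTCF core consensus, searched on both strands, in 6 of the 10 highest-scoring intervals that hold one. All of these boundaries but the one in Bcl6 return in the results. A match is a description of the letters and not a binding site. Such a match lay in 49 of 439 members. Each line gives 40 bases read 5′ to 3′ on the strand of the match, on GRCm38, with the 12 bases of the core in capitals.
chr7:37360331-37360370, minus strand, beside 6720469O03Rik: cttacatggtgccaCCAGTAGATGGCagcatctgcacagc
chr1:88290096-88290135, plus strand, in Trpm8: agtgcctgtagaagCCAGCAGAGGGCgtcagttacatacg
chr6:89680361-89680400, plus strand, between Txnrd3 and Vmn1r40: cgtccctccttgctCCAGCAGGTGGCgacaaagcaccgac
chr16:23984349-23984388, plus strand, in Bcl6: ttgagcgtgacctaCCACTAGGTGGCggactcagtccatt
chrX:150478559-150478598, plus strand, between Tmem29 and Alas2: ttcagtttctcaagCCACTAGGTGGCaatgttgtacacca
chrX:150478007-150478046, minus strand, between Tmem29 and Alas2: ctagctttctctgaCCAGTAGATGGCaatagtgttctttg
chr9:79723272-79723311, minus strand, beside Col12a1: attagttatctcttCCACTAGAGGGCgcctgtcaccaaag
The interval between Tmem29, a gene of unsettled function, and Alas2, which encodes the first enzyme of heme synthesis in red cells, held a match on each strand. The Trpm8 match lies in an intron of that gene, which encodes the cold-sensing channel, and the Bcl6 match in an intron of a transcriptional repressor gene.

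Gene starts inside high-scoring intervals are shown by 4 promoters, 250 bases before to 50 bases after the RefSeq start on GRCm38.p6, with each CG dinucleotide in capitals.
Eif1, chr11:100319699-100319998, plus strand: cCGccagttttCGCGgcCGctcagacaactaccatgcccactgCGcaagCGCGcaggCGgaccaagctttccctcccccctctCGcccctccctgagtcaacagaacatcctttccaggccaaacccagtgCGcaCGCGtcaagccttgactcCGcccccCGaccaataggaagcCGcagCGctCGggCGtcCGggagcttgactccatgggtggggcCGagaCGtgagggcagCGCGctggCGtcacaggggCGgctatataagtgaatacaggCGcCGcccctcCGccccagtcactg
Cep112, chr11:108425016-108425315, plus strand: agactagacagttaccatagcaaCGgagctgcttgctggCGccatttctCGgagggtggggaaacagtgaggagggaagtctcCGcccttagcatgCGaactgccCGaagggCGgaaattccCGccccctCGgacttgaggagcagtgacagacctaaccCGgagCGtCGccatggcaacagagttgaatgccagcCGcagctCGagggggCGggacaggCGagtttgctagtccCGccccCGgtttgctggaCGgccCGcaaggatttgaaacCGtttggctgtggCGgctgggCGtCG
Fstl5, chr3:76074311-76074610, plus strand: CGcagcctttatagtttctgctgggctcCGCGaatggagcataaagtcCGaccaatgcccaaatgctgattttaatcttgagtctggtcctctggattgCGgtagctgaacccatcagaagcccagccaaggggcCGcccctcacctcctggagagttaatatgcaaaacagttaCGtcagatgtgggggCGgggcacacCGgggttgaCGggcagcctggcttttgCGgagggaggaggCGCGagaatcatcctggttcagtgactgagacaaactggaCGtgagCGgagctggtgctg
Tmem130, chr5:144761529-144761828, minus strand: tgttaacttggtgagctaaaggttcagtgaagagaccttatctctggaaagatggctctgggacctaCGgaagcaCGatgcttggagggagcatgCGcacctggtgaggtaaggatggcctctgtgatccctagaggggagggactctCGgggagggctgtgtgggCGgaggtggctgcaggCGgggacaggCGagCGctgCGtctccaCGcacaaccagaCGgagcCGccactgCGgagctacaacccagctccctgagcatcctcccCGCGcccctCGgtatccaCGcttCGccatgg
Eif1 encodes a factor for start codon choice in translation, Cep112 a centrosomal protein, Fstl5 a secreted follistatin-like protein and Tmem130 a membrane protein. Their promoters held 28, 24, 15 and 18 CG dinucleotides in that order. Over 32851 RefSeq promoters of this length the median was 7, and 94.6% held at least 1.

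Scores of the members ran from 1.5004 to 3.78 with a median of 1.79 (quartiles 1.62 and 2.03). Of the 439, 119 scored 2 or more, 22 scored 2.5 or more and 4 scored 3 or more. The score is continuous at the threshold. Just inside lay a boundary 58.7 kb from the start of Slc4a3 on chromosome 1 (score 1.5004), one in an intron of Clec4g on chromosome 8 (1.5007) and one in an exon of Dock4 on chromosome 12 (1.5012). Just outside lay boundaries near Spata19 on chromosome 9 (1.4995), 61.7 kb from Klhl25 on chromosome 7 (1.4991) and in Setd4 on chromosome 16 (1.4986). The 7402 boundaries below 1.5 comprised 3698 of the strong class, which starts at 0.5, and 3704 of the weak class, which starts at 0.2. All 439 members were of the strong class, so both the whole remainder and its strong class are given beside them.

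The highest-scoring boundary, on chromosome 11 at 3195001 to 3200000, scored 3.78, inside Drg1, a gene for a GTP-binding protein. To its left Sfi1, which encodes a centrin-binding protein of centrosomes, started at 1.54 kb. To its right Eif4enif1, whose product carries the cap-binding protein eIF4E, started at 2.39 kb. The genes point away from the interval on both sides. It was the first boundary listed on its chromosome, and 2.44% of the bases within 100 kb of it are unassembled. The next, on chromosome 13 at 56180001 to 56185000, scored 3.57 and lay 1.12 kb from the start of Tifab. Its nearest start on the right was that of Neurog1, at 67.2 kb. Neurog1 encodes neurogenin 1, the proneural factor after which the reporter of the sort is named.

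Of the other boundaries among the first 10, 2 stood in repeated sequence. The one at rank 3, on chromosome 5 between 4930572O03Rik and Speer4c, scored 3.33, and 40.8% of the 31-base words sampled within 100 kb of it occur once in the genome. The one at rank 5, on chromosome 12 at 115830001 to 115835000 with its nearest protein-coding start 213 kb away at Zfp386, scored 2.996 with 44.4% unique words. That stretch holds immunoglobulin heavy chain variable segments, which the annotation does not class as protein-coding. Over all members the median was 88.7%, against 89.2% below 1.5. Only 4 members (0.911%) were mostly repeated or had over 5% unassembled bases, against 0.419% below 1.5, and the part of repeats in their scores was not tested.

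The first 10 also included 5 boundaries with genes on 1 side or with none in reach. The boundary on chromosome 12 near Gm527 (3.25) had 0 starts within 100 kb on the left and 3 on the right. The boundary on chromosome 7 between Tshz3 and Zfp536 (2.90), both transcription factor genes, had none on either side and 1 CTCF core match inside. On chromosome 17 a boundary (2.71) had Satb1, a chromatin organiser gene, 722 kb to the left and Kcnh8, a potassium channel gene, 42.7 kb to the right. The Trpm8 boundary (2.69) had 6 starts within 100 kb on the left and 0 on the right. The boundary on chromosome 8 right of Got2 (2.68), which encodes a mitochondrial aminotransferase, had 2 on the left and no start for 3471 kb on the right, up to the cadherin gene Cdh8. The boundary at rank 7, over the end of the phosducin-like gene Pdcl on chromosome 2 (2.90), had an odorant receptor gene on the left and 5 other genes on the right.

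Several boundaries of ranks 11 to 25 held a gene start inside, and others repeated the arrangements above. Eif1 (2.61), Fstl5 (2.60), Cep112 (2.55) and Tmem130 (2.46) started inside their intervals. Rrp15, a ribosomal RNA processing gene, started 0.643 kb from its boundary (2.51). Hsf2, a heat shock factor gene, started 41.4 kb right of a boundary (2.52) whose left neighbour Gja1, the connexin 43 gene, started 1063 kb away. Hells, a chromatin remodeller gene, and Cyp2c55, a cytochrome P450 gene, stood on opposite sides of another (2.48).

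A protein-coding gene start lay within 10 kb of 194 of 439 members, or 44.2% (Wilson 95% interval 39.6 to 48.9). Of all 5 kb bins of the assembled genome 16.9% had such a start. The share was 33.7% (32.6 to 34.8) of boundaries below 1.5 and 40.6% (38.99 to 42.2) of their strong class. The members thus exceeded the whole remainder beyond the counting intervals, while their interval overlapped that of the strong class. These intervals, used throughout, cover counting error only and take boundaries as independent. Inside the 5 kb itself a start lay in 14.4% of members, 11.9% below 1.5 and 14.9% of the strong class, against 3.93% of all bins. The gap to the strong class was wider at 25 and 50 kb. Within 25 kb the shares were 64.9% (60.3 to 69.2) of members and 56.2% (54.6 to 57.8) of the strong class, and within 50 kb 77.0% (72.8 to 80.7) and 70.1% (68.6 to 71.5). Within 100 kb they were 85.9% (82.3 to 88.8) and 83.8% (82.6 to 84.95), and the intervals overlapped again.

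**Figure D1:**
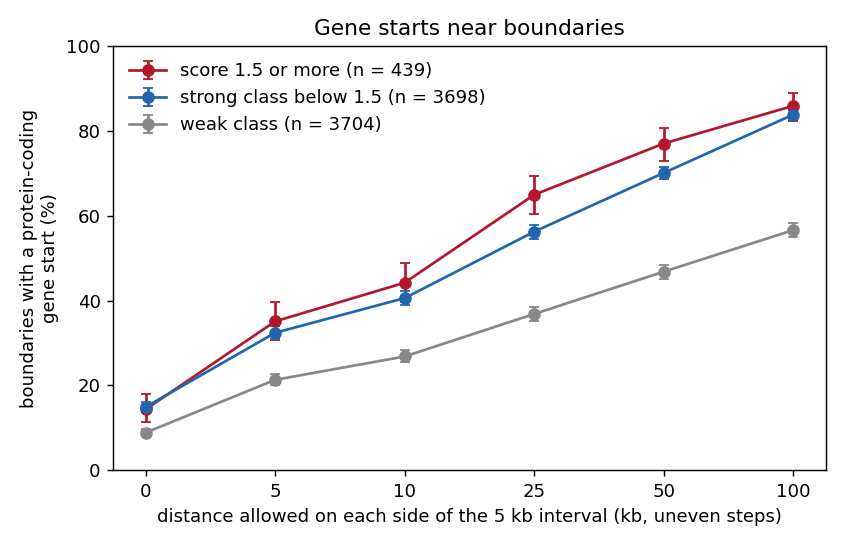
Share of boundaries (%) with a protein-coding gene start within the distance (kb) on the horizontal axis of the 5 kb interval, for 439 members, 3698 strong boundaries below 1.5 and 3704 weak boundaries, with Wilson 95% intervals. Members and strong boundaries overlap up to 10 kb, and members are higher at 25 kb (64.9% against 56.2%) and 50 kb.

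The nearest protein-coding start was a median of 13.1 kb from a member (95% interval of the median 10.7 to 17.02). It was 31.1 kb (28.7 to 33.4) below 1.5, 18.04 kb (16.3 to 19.8) in the strong class and 62.1 kb in the weak class. The median was shorter in members than below 1.5 on 19 of 20 chromosomes, chromosome 19 being the exception. Members more often had exactly 1 start within 10 kb, 35.1% (30.8 to 39.7) against 24.6% below 1.5 and 28.4% (26.9 to 29.8) of the strong class. A count of 2 or more did not follow this, at 9.11% (6.76 to 12.2) of members, 9.07% below 1.5 and 12.2% of the strong class. The boundary with the most starts, on chromosome 11 at 72215001 to 72220000 (score 1.58), had 4 within 10 kb, among them Med31, a Mediator subunit gene, and Txndc17, a thioredoxin-like gene. Long noncoding gene starts lay within 10 kb of 17.8% of members and 17.7% of the strong class.

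**Figure D2:**
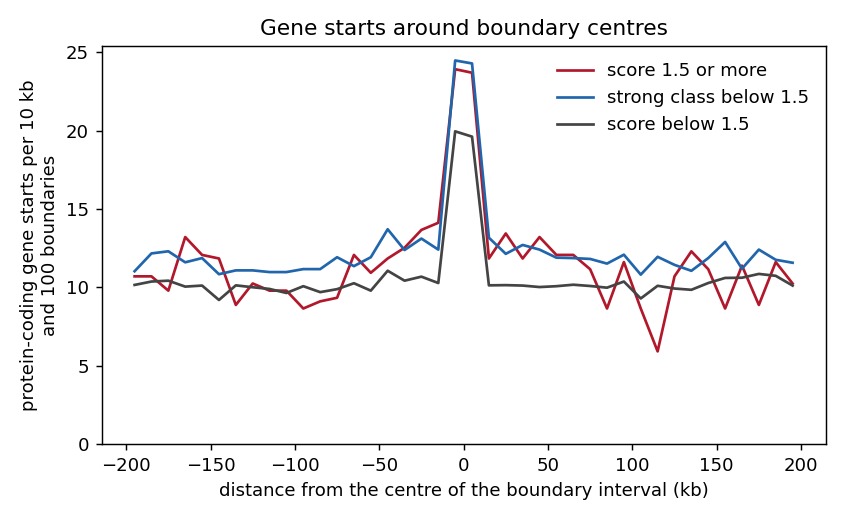
Protein-coding gene starts per 10 kb and 100 boundaries, by distance (kb) from the centre of the interval, in members, strong boundaries below 1.5 and all boundaries below 1.5. In the 10 kb left and right of the centre members had 23.9 and 23.7 starts per 100 boundaries, strong boundaries below 1.5 had 24.5 and 24.3, and all below 1.5 had 19.95 and 19.6.

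The profile of starts around boundary centres sets the peak beside its surroundings. Summed over boundaries, members and the strong class had peaks of like height, with 105 and 104 starts of members in the central bins. The higher share of members with a single start is thus not a higher number of starts at the centre.

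The members' intervals lay more often outside protein-coding genes than those of the strong class. Of 439, 254 were intergenic (57.9%, 53.2 to 62.4), against 51.2% (50.1 to 52.3) below 1.5 and 44.4% (42.8 to 46.01) of the strong class. In the weak class the intergenic share was 57.99% (56.4 to 59.6), as high as in members, so it did not set high scores apart from the lowest. An exon lay in 33.0% of members (28.8 to 37.6), 34.8% below 1.5 and 42.8% of the strong class. Coding sequence lay in 25.3% (21.4 to 29.6), 28.7% (27.7 to 29.7) and 35.8% (34.2 to 37.3). For both, the members' interval overlapped that of all boundaries below 1.5 and lay below the strong class. Of the 185 members in genes, 63 held a gene start (34.1%, 27.6 to 41.1), against 26.8% (24.9 to 28.8) in the strong class. A further 28 held a gene end but no start, and 94 lay in the body of the gene (50.8%, 43.7 to 57.9), against 62.6% (60.5 to 64.7).

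The 94 members in gene bodies had hosts with a median length of 76.1 kb, and 33 lay in genes of 200 kb or more and 15 in genes of 500 kb or more. Host lengths are not given here for boundaries below 1.5, so these counts do not set members apart. The long hosts, chosen after their values were seen, included several neuronal genes. Whether such genes are commoner among hosts of members than of other boundaries was not tested. Dlg2, a synaptic scaffold gene of 1973 kb, held a boundary scoring 2.09, and Plcb1, a phospholipase C gene of 689 kb, one scoring 2.43. Astn2, which encodes astrotactin 2, held one scoring 2.02. That interval also overlapped Trim32 and lay 0.015 kb from the Trim32 start. Lsamp, an adhesion gene of 2197 kb, held one scoring 1.89.

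The sides of a member often differed in gene content. Exactly 1 of the 100 kb sides had protein-coding starts at 229 of 439 members, or 52.2% (47.5 to 56.8). The share was 34.4% (33.3 to 35.4) below 1.5, 40.05% (38.5 to 41.6) in the strong class and 29.7% in all 5 kb bins. Both sides were empty at 62 members (14.1%, 11.2 to 17.7), against 29.8% below 1.5, 16.2% of the strong class and 42.8% of bins. Starts on both sides occurred at 33.7% (29.4 to 38.3) of members, 35.8% (34.7 to 36.9) below 1.5, where the intervals overlapped, and 43.8% (42.2 to 45.4) of the strong class. The more uneven arrangement, 1 empty side and 3 or more starts on the other, was found at 61 members (13.9%, 10.97 to 17.4), 5.17% below 1.5 and 7.38% (6.58 to 8.27) of the strong class. Members had the higher share with 1 empty side than boundaries below 1.5 on 18 of 20 chromosomes, not on 13 and 15. With 200 kb on each side the shares were 38.95% and 28.5%, and with long noncoding genes counted too 38.0% and 31.4%.

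Examples of uneven members, picked after their values were seen, follow. On chromosome 9 at 107530001 a boundary scoring 1.71 had 12 starts within 100 kb on the right, from Tmem115 in the interval on, and none on the left, where Cacna2d2, a calcium channel subunit gene, started 130 kb away. On chromosome 12 at 69140001 a boundary scoring 1.75 had 9 on the right, the first being the ribosomal protein gene Rps29 at 14.2 kb. On its left the nearest start was that of Mdga2, an adhesion gene, at 1917 kb. On chromosome 11 at 84815001 a boundary scoring 2.02 had 6 on the right and none on the left, where Lhx1, a homeobox gene, started 289 kb away.

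**Figure D3:**
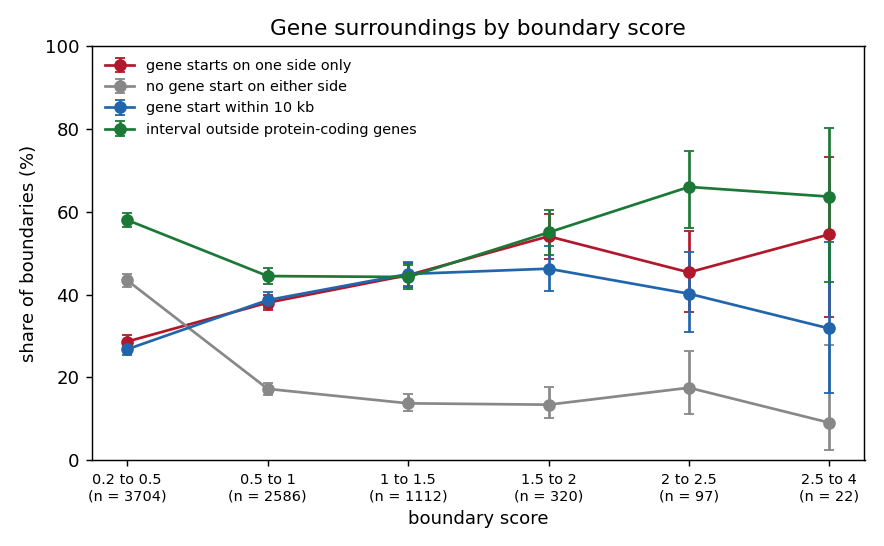
Share of boundaries (%) in 6 ranges of boundary score with gene starts within 100 kb on 1 side only, on neither side, with a start within 10 kb, or outside protein-coding genes, with Wilson 95% intervals and the number of boundaries per range. Gene starts on 1 side only run from 28.7% at scores of 0.2 to 0.5 to 54.1% at 1.5 to 2, and the share near a start is 45.0% at 1 to 1.5 and 40.2% at 2 to 2.5.

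The plot by score range shows how these shares ran along the whole list and within the members. The share with a start within 10 kb was 26.8% at scores of 0.2 to 0.5, 38.7% at 0.5 to 1 and 45.0% at 1 to 1.5. Within the members it was 46.3% (40.9 to 51.7) of 320 at 1.5 to 2, 40.2% of 97 at 2 to 2.5 and 31.8% (16.4 to 52.7) of 22 above. It did not rise further with score. The intergenic share was lowest at 0.5 to 1 and 1 to 1.5 (44.5% and 44.2%) and was 66.0% (56.1 to 74.6) at 2 to 2.5. Coding sequence lay in 37.0% of intervals at 1 to 1.5 and in 15.5% at 2 to 2.5. Of the 22 with the highest scores, 2 were mostly repeated.

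The directions of the flanking genes differed as well. The nearest start on each side pointed away from the boundary, a divergent arrangement, at 125 members (28.5%, 24.5 to 32.9). This compared with 22.01% (21.1 to 23.0) below 1.5, 22.5% (21.2 to 23.9) of the strong class and 19.8% of bins. The nearest starts pointed towards the boundary from both sides at 21.2% (17.6 to 25.2) of members and 27.8% (26.4 to 29.2) of the strong class. Tandem arrangements were alike, at 49.7% and 49.6%. Sfi1 with Eif4enif1 and Tmem130 with Trrap, a gene for a histone acetyltransferase subunit, are divergent pairs of the first 25. With a lower score threshold, which admits 833 boundaries, the divergent share was 24.8% (22.04 to 27.9). It was 22.1% (21.1 to 23.1) of the boundaries below that threshold, and the intervals overlapped.

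Of the genes that started outside an interval but within 10 kb of it, 104 of 167 beside members pointed away (62.3%, 54.7 to 69.3), against 55.7% (53.7 to 57.7) below 1.5. These intervals overlapped. Base composition also changed across members. The GC content of the 100 kb sides differed by a median of 1.59 percentage points (1.36 to 1.77), against 1.37 (1.32 to 1.44) in the strong class and 1.14 below 1.5. Where 1 side had more gene starts it had the higher GC content at 195 of 327 members (59.6%, 54.2 to 64.8). The share was 55.03% (53.1 to 56.9) in the strong class. In both measures the intervals of members and of the strong class overlapped.

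Exact matches to the CTCF core lay inside 11.2% of members (8.55 to 14.5), 6.65% (6.10 to 7.24) below 1.5, 8.79% (7.92 to 9.74) of the strong class and 2.41% of all 5 kb bins. Within 10 kb a match lay at 34.6% (30.3 to 39.2) of members, 25.5% below 1.5, 33.6% (32.1 to 35.1) of the strong class and 11% of bins. Members thus stood above the whole remainder, but close to the strong class. With 1 mismatch allowed, 51.03% of members and 51.4% of the strong class had a match inside. Matches on both strands within 10 kb, as beside Tmem29, were found at 23 members (5.24%, 3.52 to 7.74), against 2.73% below 1.5 and 3.92% of the strong class. Neither a start nor an exact core match lay within 10 kb of 146 members (33.3%, 29.0 to 37.8), against 37.4% (35.9 to 38.998) of the strong class. No match says only that these letters are absent from the window.

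Of the 21728 protein-coding genes of the genome, 241 (1.11%) had their start at most 10 kb from a member and 3322 (15.3%) at most 10 kb from a boundary below 1.5. Of the 241, 119 had a CpG-type start (49.4%, 43.1 to 55.6), as did 49.97% of the genes near lower boundaries and 35.1% of all. Of 6019 genes on at least 1 of 37 functional lists, 69 (1.15%, 0.907 to 1.45) were near a member, a share close to that of all genes. The lists overlap and differ widely in size, so single lists rest on few genes.

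Regulators of olfactory precursors gave 4 of 30 (13.3%, 5.31 to 29.7), against 1.11% of all genes. Ebf1 and Ebf3 encode factors of the Olf/Ebf family, Emx2 a homeobox factor and Sox11 a factor of early neurons. Ebf1 started 7.32 kb from a boundary scoring 2.08, Emx2 3.37 kb from one scoring 1.99, Ebf3 5.56 kb from one scoring 1.84 and Sox11 2.57 kb from one scoring 1.84. The Sox11 interval covers an exon of the gene, and the other 3 are intergenic. None of the 4 boundaries had an exact CTCF core match within 10 kb. Only 34.6% of all members had one, so this does not set the 4 apart. Boundaries below 1.5 were near 10 of the 30 (33.3%), also above the 15.3% of all genes. Within 100 kb of members lay also Neurog1, Kdm1a and Ccnd1. Kdm1a, a histone demethylase gene, lay 32.3 kb from a boundary scoring 1.66. Ccnd1, the cyclin D1 gene, lay 19.9 kb from one scoring 1.54. At least 1 listed regulator started within 100 kb of 7 members (1.59%, 0.774 to 3.25). The share was 0.324% (0.218 to 0.482) below 1.5 and 0.406% (0.246 to 0.668) in the strong class. The share of all genes within 100 kb of a member is not given here, and the 1.11% holds for 10 kb only.

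**Figure D4:**
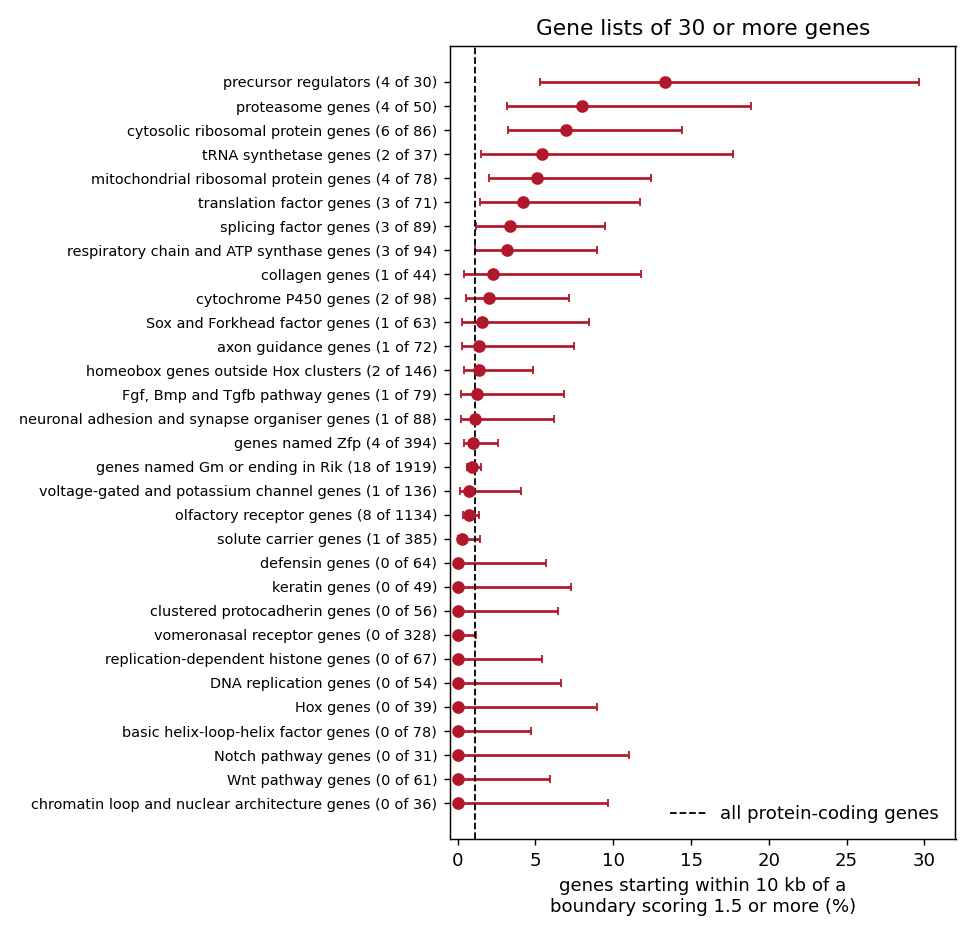
Share (%) of each gene list of 30 or more genes that started within 10 kb of a member, with Wilson 95% intervals, the count in brackets, and a dashed line at the 1.11% of all protein-coding genes. Precursor regulators (13.3%), proteasome genes (8.00%) and cytosolic ribosomal protein genes (6.98%) are highest among the lists plotted, with 2 to 6 genes behind each of the first 5 lists, while mature neuron markers (2 of 26, 7.69%) are too few to be plotted.

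Genes for protein synthesis and turnover also had shares above that of all genes. Of 86 cytosolic ribosomal protein genes 6 were near members (6.98%, 3.24 to 14.4). Rps24 started inside an interval scoring 2.32 and Rps3 inside one scoring 1.52. Rps23 lay 2.96 kb from a boundary scoring 2.22, Rpl37 6.64 kb from one scoring 2.04, and Rpl38 and Rplp1 near ones scoring 1.60 and 1.51. Of 78 mitochondrial ribosomal protein genes 4 were near (5.13%, 2.01 to 12.5), with Mrps27 (1.80) and Mrps30 (1.69) starting inside and Mrps14 (1.91) and Mrps22 (1.51) beside. Of 50 proteasome genes 4 were near (8.00%, 3.15 to 18.8), namely Psmd6 (2.02), Psmd7 (1.91), the assembly chaperone gene Psmg3 (1.82) and Psmc1 (1.66). Of 71 translation factor genes 3 were near (4.23%, 1.45 to 11.7), Eif4enif1, Eif1 and Eef1b2, the last in an interval scoring 1.52 where Ndufs1, of respiratory complex I, also starts.

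The tRNA synthetase genes gave 2 of 37 (Tars and Nars2), the respiratory chain and ATP synthase genes 3 of 94 (Atp5o, Atp5f1 and Ndufs1) and the splicing factor genes 3 of 89 (Snrpg, Snrpa1 and Ddx39b). The lower limits of the last 2 lists, 1.09% and 1.15%, reach down to about the share of all genes. Several of these lists were also above all genes near boundaries below 1.5, as with 34.9% of cytosolic ribosomal protein genes and 33.8% of translation factor genes against 15.3%. Proteasome genes were at 18% and tRNA synthetase genes at 16.2% there.

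Of 26 mature neuron markers 2 were near members (7.69%, 2.14 to 24.1, against 1.11% of all genes). Ncam2, an adhesion gene, started 5.70 kb from a boundary scoring 1.59, and Gnal, the olfactory G protein gene, 3.22 kb from one scoring 1.57. Other neuronal, signalling and membrane protein lists gave at most 2 genes each. Single genes came from the lists of growth factor pathways (Gdf7, 1.68), axon guidance (Plxna4, 1.69), ion channels (Kcnh1, 1.54), solute carriers (Slc10a1, 2.00) and collagens (Col12a1, 2.21). Pou3f2, a neural POU factor gene, lay 8.37 kb from a boundary scoring 1.51. Of 394 genes named Zfp 4 were near (1.02%), with Zfp982 starting inside an interval scoring 2.19.

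No gene was near a member among 78 basic helix-loop-helix factors (upper Wilson limit 4.69%), 61 Wnt pathway genes (5.92%), 67 replication-dependent histones (5.42%), 54 DNA replication genes (6.64%), 56 clustered protocadherins (6.42%) or 328 vomeronasal receptor genes (1.16%). The counts were also 0 for Hox, keratin, defensin, Notch pathway, trace amine receptor and chromatin architecture genes, and for markers of immature neurons, horizontal basal cells, supporting cells and immune and stromal cells. Their upper limits of 5.66% to 20.4% lie above the share of all genes, so a lower share was not detectable in lists of these sizes.

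Odorant receptor genes, 8 of 1134 within 10 kb (0.705%, 0.358 to 1.39), were near members at about the share of all genes. Within 100 kb, 15 members had odorant receptor genes (3.42%, 2.08 to 5.56). The share was 1.88% (1.59 to 2.21) below 1.5, where the intervals overlapped, and 1.41% (1.07 to 1.84) in the strong class. The receptor genes lay on 1 side only at 13 of the 15 (86.7%, 62.1 to 96.3). Below 1.5 this held at 71 of 139 boundaries (51.1%, 42.9 to 59.2), and in the strong class at 39 of 52 (75%, 61.8 to 84.8). At 10 of the 15 (66.7%, 41.7 to 84.8) the opposite side had other genes. This held at 53 of 139 below 1.5 (38.1%, 30.5 to 46.4) and at 31 of 52 of the strong class (59.6%, 46.1 to 71.8). In both traits the members' interval overlapped that of the strong class. For other genes opposite, it also overlapped that of boundaries below 1.5. On chromosome 14 a boundary scoring 1.75 had Sall2, the RNA methyltransferase gene Mettl3 and the chromatin remodeller gene Chd8 among 5 genes on the left and 5 receptors from Olfr1513 on the right. On chromosome 10 a boundary scoring 2.08 had Itga7, Cd63 and Gdf11 among 6 genes on the left and 5 receptors from Olfr9 on the right. On chromosome 19 a boundary scoring 1.95 had Osbp, an oxysterol-binding protein gene, opposite 6 receptors. The exceptions, on chromosome 7 beside Olfr544 (2.35) and on chromosome 2 beside Olfr1177-ps (1.79), had receptors on both sides.

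Vomeronasal receptor genes lay within 100 kb of 8 members (1.82%), against 0.648% below 1.5 and 0.325% of the strong class. They were on 1 side only at 7 of the 8, against 29 of 48 below 1.5, and the intervals (52.9 to 97.8 and 46.3 to 73.0) overlapped. On chromosome 7 a boundary scoring 2.45 had 8 genes on the left, among them the corepressor gene Trim28, and Vmn1r85 to Vmn1r88 on the right. On chromosome 6 the boundary with the CTCF core match printed above (2.67) separated Txnrd3 and Chchd6 from Vmn1r40 and Vmn1r41. Cytochrome P450 genes were on 1 side only at 5 of 6 members and at 32 of 39 boundaries below 1.5.

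Of the members, 34 had a long noncoding but no protein-coding start within 10 kb (7.74%, 5.595 to 10.6). The share was alike below 1.5 (7.28%) and in the strong class (7.92%), so it did not set members apart. The highest-scoring of them, chosen after their values were seen, lay near Speer4cos (3.33), 6720469O03Rik (2.90) and Nespas (2.42), the antisense transcript of the imprinted Gnas locus. Some members were far from any protein-coding gene start. The farthest, on chromosome 2 at 8665001 (2.33), was 1155 kb from Celf2, an RNA-binding protein gene. A boundary on chromosome 14 (1.83) lay 926 kb and 910 kb from Slitrk1 and Slitrk6, both neurite outgrowth genes. On chromosome 15 a boundary (1.65) lay 879 kb from Basp1, a growth cone gene. The others lay inside long genes, Pde4d (1.71) and the axon guidance receptor gene Robo1 (1.73), 765 kb and 682 kb from their starts.

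Members were spaced slightly wider than other boundaries. The nearest other boundary of any score was a median of 230 kb away (215 to 240), against 200 kb (200 to 205) below 1.5 and 205 kb (205 to 210) in the strong class. The larger of the gaps on either side had a median of 400 kb (375 to 415), against 335 kb (330 to 340) in the strong class. The neighbours of members scored a median of 0.437 against 0.539 for neighbours of boundaries below 1.5, and 435 of 439 members scored higher than their neighbours, which the selection by score favours.

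From 1 member to the next the median distance was 4395 kb, and 24 of 419 such pairs lay within 1 Mb. The closest pair, on chromosome 11 at 74370001 and 74550001, was 180 kb apart with no gene start between and odorant receptor genes such as Olfr412 on its left. The next enclosed Rxfp1, the relaxin receptor gene, over 220 kb on chromosome 3, and Osbpl3 and Cycs, the cytochrome c gene, over 310 kb on chromosome 6. Pairs 395 kb apart on chromosome 19 and 405 kb apart on chromosome 5 enclosed 4 and 7 gene starts and 1 lower boundary each. Only 4 pairs in all had no other boundary between. The fourth enclosed Reep3, Jmjd1c and Nrbf2 over 480 kb on chromosome 10.

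The autosomes had similar shares of members, and chromosome X a lower one. On the 19 autosomes members made up 4.69% (chromosome 3) to 7.65% (chromosome 12) of boundaries, with a median of 5.97%, and their intervals overlapped. On chromosome X, 8 of 431 boundaries were members (1.86%, 0.943 to 3.62), against 431 of 7410 on the autosomes together. The upper limit for chromosome X lay below the share of each autosome, and overlapped the intervals of some. Per Mb of assembled sequence chromosome X had 0.0489 members, and the autosomes 0.141 to 0.253. The 3 longest stretches without a member were all on chromosome X, at 45445, 36950 and 29035 kb, and they held 108, 79 and 85 lower boundaries.

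**Figure D5:**
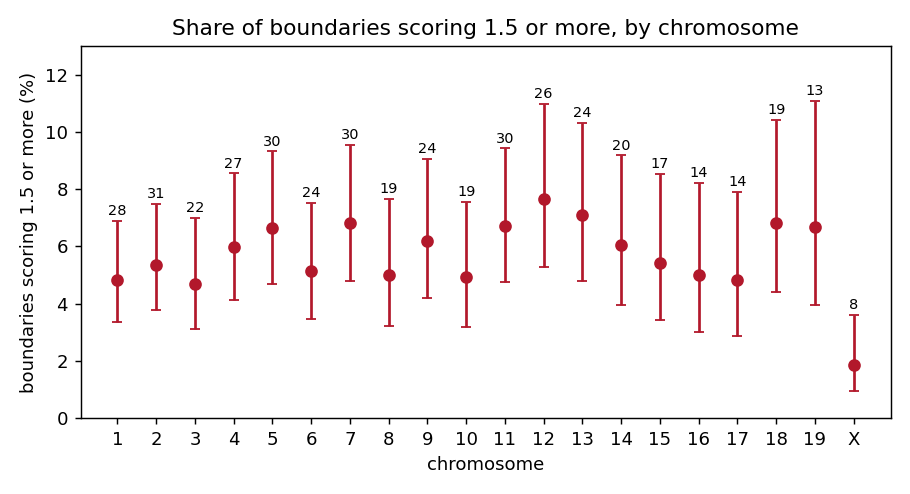
Share (%) of each chromosome's boundaries that scored 1.5 or more, with Wilson 95% intervals and the number of members above each. Chromosome X, with 8 members and 1.86%, lies below the 4.69% to 7.65% of the autosomes.

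The highest-scoring member on chromosome X was the Tmem29 and Alas2 boundary with a CTCF core match on each strand (2.30). Firre, a long noncoding RNA gene known for its part in nuclear architecture, started 0.321 kb from the next (2.23), which had no protein-coding start within 200 kb. A boundary scoring 1.72 overlapped an exon of Ikbkg, an NF-kB pathway gene, and lay 0.807 kb from the start of G6pdx, the glucose-6-phosphate dehydrogenase gene, with 6 starts within 100 kb on the left and 1 on the right. The remaining named members lay 44.8 kb from Pbdc1 (1.71), and 25.7 kb from Tmsb4x, the thymosin beta 4 gene, and 24.3 kb from Tlr8, a toll-like receptor gene (1.64).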

How the data were processed

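In situ Hi-C was done on 2 biological replicates, per the labels. Their contact lists were combined into a GRCm38 matrix on which the authors called boundaries, per the series' design text. The deposited score is 1 value per 5 kb boundary. Which caller and window made it is not given in the sources used here. Contact matrices and insulation and compartment tracks were not analysed here.

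Gene starts came from GENCODE M21 (21728 protein-coding genes, 1 model per symbol), sequence from GRCm38.p6 and promoters from RefSeq. The reference strain differs from FVB/NTac. Starts and CTCF core matches were counted in the interval extended by 10 kb, and gene content in 100 kb beyond each edge, split at the interval's centre. CpG-type starts had at least 55% GC and a CpG observed over expected ratio of 0.65 in 1 kb. Repeats were measured from a sample of 31-base words (1 in 32), as the percentage found once in the genome. Shares have Wilson 95% intervals and medians order-statistic intervals, from scipy 1.17.1, numpy 2.4.6 and pandas 2.3.3 in Python 3.11.15, after scripts were tested on simulated data. No test was run, since the list is 1 pooled measurement. Members and lists were chosen with earlier results of these data known. By rule, genes named were those of the 25 highest boundaries, up to 6 per list, all precursor regulators, and boundaries at the threshold, on chromosome X, in the closest pairs, with the most starts and farthest from starts. Long host genes, uneven boundaries, examples beside receptor arrays and noncoding genes were picked after their values were seen. A result on 1 of the genes under the rule is not reported here.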

Additional observations from a re-analysis of the deposited data

How the results depend on the processing

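Of 89 alternative values, 51 stayed within the 95% interval of the value given (or 1.5 times a count) and 38 did not. Those on one-sided and divergent starts were added after seeing the data. The planned result on the sides was the share with at least 1 empty side. It was 66.3% (61.7 to 70.6) of members and 64.2% (63.1 to 65.3) below 1.5, and these intervals overlapped.

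With windows of 0, 5 and 25 kb the share near a start was 14.4%, 35.1% and 64.9% in members and 11.9%, 26.8% and 46.5% below 1.5. The share with a CTCF core match in members was 11.2%, 26.9% and 54.2%, and 96.1% within 10 kb with 1 mismatch. The last share is not given here for other boundaries or bins, so it does not set members apart. The count of listed genes was 16, 45 and 128. With a threshold of 2, 38.7% of members were near a start at a median of 17.9 kb, 47.1% had starts on 1 side only and 35.3% divergent starts. Listed genes numbered 19 and the chromosome X share was 0.464%. At the lower threshold, which admits 833 boundaries, these were 123 and 3.71%. With long noncoding starts added, 51.9% of members and 41.0% below 1.5 were near a start, the members' median was 8.80 kb, and 45.1% had at least 1 empty side. Starts on 1 side only then came to 38.0% of members and 31.4% below 1.5, and divergent starts to 24.2% below 1.5. With all transcript starts, 37.9% below 1.5 were near a start, 59.5% of members had at least 1 empty side, and below 1.5 31.4% had 1 side only and 20.5% divergent starts. With 200 kb sides, 1 side only came to 38.95% of members and 28.5% below 1.5, and with 50 kb to 37.8% below 1.5. Against the strong class alone the shares were 40.6% near a start and 40.05% with 1 side only, and the weak class had 26.8% near a start. Where shares of members and of boundaries below 1.5 are both printed here, that of members was the higher. At 0 kb their intervals overlapped (11.4 to 17.9 and 11.2 to 12.6), and members were below the 14.9% of the strong class. With a threshold of 2, the interval of the share near a start (30.4 to 47.6) included the 34.2% of boundaries below 2. The cause of the shifts between settings was not tested, beyond the width of the window. Leaving out chromosome X or the mostly repeated surroundings moved no value outside its interval. Keeping the highest of boundaries within 50 kb left all 7841.

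No paired analysis was possible because the replicates were pooled before boundaries were called. For the same reason no replicate was left out. Depth is unknown.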
